A study of Mus musculus with 6 samples.

Results

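Hyperpolarization-activated, cyclic nucleotide–gated (HCN) channels were examined in mouse dorsal root ganglia (DRGs) through the 3 genes *Hcn2*, *Hcn3*, and *Hcn4*, which were taken by their symbols from the 48440 rows of the gene count table. DRGs hold the cell bodies of the sensory neurons of the trunk and limbs, together with satellite glia, Schwann cells, and other cells. The libraries came from the ipsilateral L3/4 DRGs of WT male mice. In 3 libraries (AAV5-*Gfp*) the ganglia had received a viral vector for green fluorescent protein by microinjection, and in the other 3 (AAV5-*V1+V2*) the vectors AAV5-*V1* and AAV5-*V2* together, which carry the variants of the *NIS-lncRNA* transcript, a long noncoding RNA that nerve injury induces. Every ganglion therefore carried adeno-associated virus of serotype AAV5. The deposited description gives tissue collection at 5 weeks and also a comparison at 4 weeks after microinjection. The promoter that drives each virus and the number of mice behind a library are not given in the sources used here, and the overexpression itself was not checked, because its gene is not analysed here. The labels do not say whether the replicates of a group were separate mice, so the p-values measure only the spread between these libraries, which may be technical. Total counts ranged from 32025612 to 34764282 per library, and the ranges of the groups overlapped. Values of single libraries are given in the order of replicates 1, 2, and 3.

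HCN channels are tetrameric cation channels that open when the membrane becomes more negative and pass the inward current named I(h), which pulls the membrane back toward the firing threshold. Cyclic AMP binds to the intracellular end of the channel and eases opening, to differing degrees among the family members. HCN2 responds strongly to cyclic AMP and has been tied to the firing of nociceptors and to inflammatory and neuropathic pain in mice. HCN4 is slow, responds strongly to cyclic AMP, and is best known as the pacemaker channel of the sinoatrial node. HCN3 responds little to cyclic AMP. The comparison asked whether transcripts of these channels and of the cyclic AMP pathway that acts on them differed between ganglia with and without the added *NIS-lncRNA* variants.

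*Hcn2* lies on the plus strand of chromosome 10 of GRCm38, from 79716634 to 79736108, *Hcn3* on the minus strand of chromosome 3, from 89146074 to 89160196, and *Hcn4* on the plus strand of chromosome 9, from 58823412 to 58863175 (GENCODE M21). All 3 are protein-coding, and the longest transcript of each has 8 exons. The last bases of *Hcn3* overlap those of *Pklr*, a pyruvate kinase gene on the opposite strand, over 711 bp of exons. The sources used here do not say whether the counting used strand. *Pklr* had 4 to 9 counts in any library, and its part in the *Hcn3* counts was not tested. The sequences of 250 bases before the start of transcription are shown for *Hcn2* and *Hcn4*, whose log2 fold changes had opposite signs. They are from RefSeq (GRCm38.p6), whose start of *Hcn4* lies upstream of that in GENCODE and which matched 2 of the 3 members in the table used here, with *Hcn3* as the missing entry. Both are on the plus strand, at chr10:79716384-79716633 for *Hcn2* and at chr9:58822699-58822948 for *Hcn4*, and capitals mark each GC box (GGGCGG, or CCGCCC on the other strand).
Hcn2: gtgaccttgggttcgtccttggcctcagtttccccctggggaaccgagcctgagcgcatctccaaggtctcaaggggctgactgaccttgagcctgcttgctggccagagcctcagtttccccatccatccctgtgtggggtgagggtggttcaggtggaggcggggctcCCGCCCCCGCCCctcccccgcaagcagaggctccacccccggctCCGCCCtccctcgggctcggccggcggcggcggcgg
Hcn4: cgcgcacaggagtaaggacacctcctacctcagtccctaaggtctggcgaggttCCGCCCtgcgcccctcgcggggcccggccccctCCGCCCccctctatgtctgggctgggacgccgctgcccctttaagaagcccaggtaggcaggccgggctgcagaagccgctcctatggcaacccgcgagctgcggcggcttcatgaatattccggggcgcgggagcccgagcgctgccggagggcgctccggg
The *Hcn2* sequence held 3 GC boxes at 70.4% G and C, with 2 of the boxes next to each other, and the *Hcn4* sequence held 2 at 71.2%. Of 32851 promoters of this length, 32.7% held at least 1 GC box on either strand. Neither sequence held the half-site of the cyclic AMP response element (TGACG on either strand, present in 17.8% of promoters) or TATAAA (12.4%, either strand). In these windows both genes therefore held GC boxes and neither held the other motifs.

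*Hcn2* was lower in AAV5-*V1+V2* DRGs, *Hcn3* had a lower mean that did not pass the test, and *Hcn4* had a higher mean that did not pass either. All 3 passed the filter on low counts and were among the 18593 genes tested. At an adjusted p under 0.05, 1 of the 3 was called lower and 0 were called higher, where 5.27% of all genes tested were lower and 10.1% were higher. At an unadjusted p under 0.05, *Hcn2* and *Hcn3* were lower and none of the 3 was higher, and DESeq2 called *Hcn2* alone. The median log2 fold change over all genes tested was -0.0003.

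*Hcn2* had 461, 479, and 410 reads after AAV5-*Gfp* and 300, 357, and 287 after AAV5-*V1+V2*. As reads per 1000000 of the TMM-scaled library (CPM), these were 14.3, 13.8, and 13.1 against 9.12, 10.7, and 8.37. Every AAV5-*V1+V2* library lay below every AAV5-*Gfp* library. The mean fell from 13.7 ± 0.576 to 9.40 ± 1.20 CPM (SD, n = 3). In the fit it fell by 31.6%, with a log2 fold change of -0.55 and a standard error of 0.12 (adjusted p = 0.0263, quasi-likelihood F test of edgeR, Benjamini-Hochberg adjustment). This call held in 13 of 16 alternative analyses. It was lost when any 1 of the AAV5-*Gfp* libraries was left out, with edgeR adjusted p-values of 0.0831 without replicate 1, 0.0964 without replicate 2, and 0.0926 without replicate 3, at log2 fold changes of -0.52, -0.55, and -0.58.

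*Hcn3* had 176, 155, and 162 reads after AAV5-*Gfp* and 111, 129, and 148 after AAV5-*V1+V2*. The CPM values were 5.45, 4.47, and 5.19 against 3.37, 3.88, and 4.31. The groups did not overlap, but AAV5-*V1+V2* replicate 3 came close to AAV5-*Gfp* replicate 2. Groups without overlap were seen for 45.4% of all genes tested, so that this alone was common. The means were 5.04 ± 0.508 CPM (SD, n = 3) and 3.85 ± 0.471 CPM (SD, n = 3), and the log2 fold change of -0.39 (standard error 0.15) did not pass the threshold (edgeR adjusted p = 0.119, unadjusted p = 0.036). It had the same sign and missed the threshold in all 16 alternatives.

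*Hcn4* had 213, 207, and 235 reads after AAV5-*Gfp* and 216, 373, and 333 after AAV5-*V1+V2*. The CPM values were 6.60, 5.97, and 7.53 against 6.56, 11.2, and 9.71. AAV5-*V1+V2* replicates 2 and 3 were above every AAV5-*Gfp* library, whereas replicate 1 lay inside the AAV5-*Gfp* range. The means were 6.70 ± 0.783 CPM (SD, n = 3) and 9.16 ± 2.37 CPM (SD, n = 3), and the log2 fold change was 0.45 (standard error 0.20, edgeR adjusted p = 0.162). Without AAV5-*V1+V2* replicate 1 the log2 fold change was 0.65 with an edgeR adjusted p of 0.0209, and without replicate 2 it was 0.29 with an adjusted p of 0.372. With sample weights in limma-voom it was 0.69 (adjusted p = 0.0101). The positive sign was kept in all 16 alternatives, and the threshold was passed in 2 of them.

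**Figure D1:**
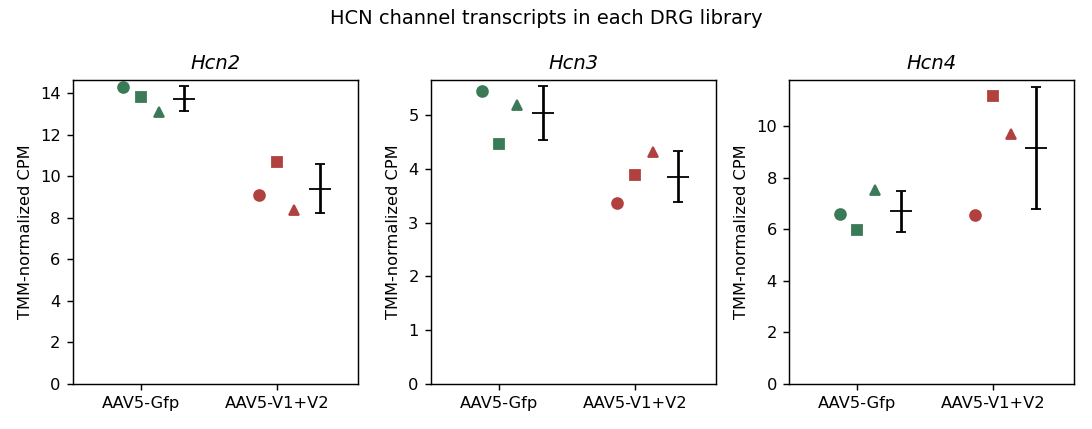
TMM-normalized CPM of *Hcn2*, *Hcn3*, and *Hcn4* in each of the 6 DRG libraries (circle, replicate 1; square, replicate 2; triangle, replicate 3), with the mean and SD of each group in black and each vertical axis starting at 0. The groups are apart for *Hcn2* and *Hcn3*, and AAV5-*V1+V2* replicate 1, at 6.56 CPM, lies within the AAV5-*Gfp* range for *Hcn4*.

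To set the genes beside each other, CPM were divided by the length of the annotated exons, 3195 bp for *Hcn2*, 4154 bp for *Hcn3*, and 6118 bp for *Hcn4*. On this scale, *Hcn2* had the highest level in every library, from 4.11 to 4.47 CPM per kb after AAV5-*Gfp* and from 2.62 to 3.36 after AAV5-*V1+V2*. In AAV5-*Gfp* DRGs the order was *Hcn2* (4.30 ± 0.180 CPM per kb, SD, n = 3), *Hcn3* (1.21 ± 0.122), and *Hcn4* (1.10 ± 0.128), of which the latter 2 did not differ beyond their spread. In AAV5-*V1+V2* DRGs the levels were 2.94 ± 0.377 CPM per kb for *Hcn2*, 1.5 ± 0.387 for *Hcn4*, and 0.928 ± 0.113 for *Hcn3* (SD, n = 3), so that *Hcn4* was above *Hcn3* in 3 of 3 libraries, where it had been below *Hcn3* in 3 of 3 AAV5-*Gfp* libraries. Averaged over the 6 libraries, *Hcn2* was above 49.6% of 17900 tested genes of known length, *Hcn4* above 28.0%, and *Hcn3* above 25.0%. Among these 3 genes alone, the share of *Hcn2* in their summed level per kb was 65.1% ± 2.72 after AAV5-*Gfp* and 55.0% ± 5.14 after AAV5-*V1+V2*, and that of *Hcn4* was 16.6% ± 1.83 and 27.6% ± 4.30 (SD, n = 3). The share of *Hcn3* was 18.3% ± 1.25 and 17.4% ± 2.29. The log2 of the summed level of these 3 genes was 0.31 lower with AAV5-*V1+V2* (2.72 ± 0.053 against 2.42 ± 0.186, SD, n = 3, exact two-sided permutation test, p = 0.1). This p-value is the smallest that 3 libraries against 3 allow, here and in the tests that follow.

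Whether the members moved differently was tested on the log2 ratio of 2 members within each library, which depends little on the scaling of the libraries. The *Hcn2* to *Hcn4* ratio was 1.11, 1.20, and 0.80 after AAV5-*Gfp* and 0.47, -0.06, and -0.21 after AAV5-*V1+V2*. All values of one group were above all of the other, and the mean ratio differed by -0.97 on the log2 scale (exact two-sided permutation test, p = 0.1, adjusted p = 0.15 over 3 pairs of genes). The *Hcn3* to *Hcn4* ratio was -0.27, -0.41, and -0.53 against -0.95, -1.52, and -1.16, a difference of -0.80 on the log2 scale (exact permutation p = 0.1, adjusted p = 0.15). AAV5-*V1+V2* replicate 1, whose *Hcn4* CPM lay inside the AAV5-*Gfp* range, was on the side of its group for both ratios. Its *Hcn2* and *Hcn3* values, at 9.12 and 3.37 CPM, were below those of every AAV5-*Gfp* library. The *Hcn2* to *Hcn3* ratio overlapped between groups, at 1.38, 1.61, and 1.33 against 1.42, 1.45, and 0.95 (difference -0.17, exact permutation p = 0.6, adjusted p = 0.6). A design of this size cannot reach an exact p under 0.05, and none of the 3 ratios was therefore shown to change.

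A whole ganglion mixes neurons with other cells, and CPM are relative to the whole library. In these libraries fewer cells of a type, less RNA per cell, and more RNA from other cells cannot be told apart. The libraries carried the defining markers of the labelled tissue. All 12 pan-neuronal markers were tested, among them *Tubb3*, a tubulin of neurons, at 1464 ± 56.2 CPM, and *Snap25*, a protein of vesicle release, at 832 ± 58.4 CPM with AAV5-*Gfp* (SD, n = 3). The mean level of these markers was lower in every AAV5-*V1+V2* library than in any AAV5-*Gfp* library. Their mean log2 CPM was 8.17, 8.16, and 8.31 after AAV5-*Gfp* and 7.4, 7.85, and 7.93 after AAV5-*V1+V2* (difference -0.49, exact two-sided permutation test, p = 0.1). Of the 12, 2 were called lower (16.7%) and 0 higher by edgeR, where 5.27% of all genes tested were lower and 10.1% higher. At an unadjusted p under 0.05, 9 were lower and 0 higher, and with DESeq2 8 and 0. Their median log2 fold change was -0.45. AAV5-*V1+V2* replicate 1 had the lowest neuronal level of all 6 libraries.

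Relative to these neuronal markers, the groups overlapped for *Hcn2* and *Hcn3*, whereas *Hcn4* was higher in every AAV5-*V1+V2* library than in any AAV5-*Gfp* library. The log2 level of *Hcn2* minus the mean of the pan-neuronal markers was -4.32, -4.37, and -4.59 after AAV5-*Gfp* and -4.20, -4.42, and -4.85 after AAV5-*V1+V2*, overlapping groups with a difference of -0.06 (exact permutation p = 0.8, adjusted p = 0.8 over 3 genes). The size of this difference depended on the reference, at -0.283 with the markers of large-diameter neurons and -0.262 with those of small-diameter neurons (exact permutation p = 0.2 for each). Without AAV5-*V1+V2* replicate 3 the difference for *Hcn2* was 0.12. For *Hcn3* the values were -5.70, -5.98, and -5.92 against -5.62, -5.88, and -5.80 (difference 0.10, exact permutation p = 0.4, adjusted p = 0.6). This sign turned with other markers in the reference, to -0.115 with those of large-diameter neurons and to -0.093 with those of small-diameter neurons. For *Hcn4* the values were -5.43, -5.57, and -5.39 after AAV5-*Gfp* and -4.67, -4.36, and -4.64 after AAV5-*V1+V2*, so that all 3 libraries, replicate 1 included, were higher, by 0.91 on average (exact permutation p = 0.1, adjusted p = 0.3). With the large-diameter and small-diameter markers as the reference, this difference was 0.69 and 0.71.

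**Figure D2:**
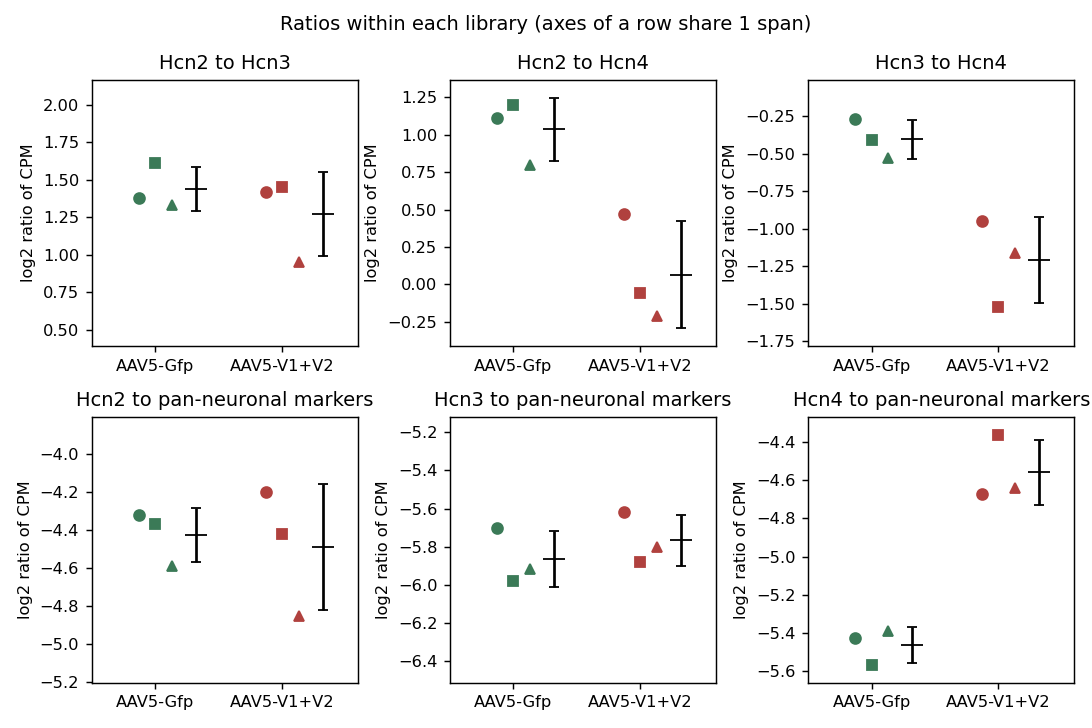
Log2 ratios of CPM in each library, between members (upper row) and between each member and the mean of 12 pan-neuronal markers (lower row), with the mean and SD of each group in black and symbols by replicate number (circle, 1; square, 2; triangle, 3). *Hcn4* is higher relative to the neuronal markers in all 3 AAV5-*V1+V2* libraries (-4.67 to -4.36 against -5.57 to -5.39), while the groups overlap for *Hcn2* and *Hcn3*. The mean of the markers is itself lower in the AAV5-*V1+V2* libraries (difference -0.49).

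Markers of the neuron classes had negative medians as well, with a log2 fold change of -0.42 for large-diameter neurons (4 of 11 called lower, 1 higher) and of -0.31 for small-diameter neurons (1 of 12 lower, 0 higher by edgeR, 1 higher at an unadjusted p under 0.05 and 1 with DESeq2). The shares over all genes tested, for these and the other cell types below, were 5.27% lower and 10.1% higher. The small-diameter share of 8.33% lower was near the first of these. *Nefm* and *Nefl*, neurofilament genes of large neurons, were at 2249 ± 160 and 2208 ± 81.5 CPM in AAV5-*Gfp* DRGs and at 1809 ± 316 and 1812 ± 403 CPM in AAV5-*V1+V2* DRGs (SD, n = 3). *Scn10a*, a sodium channel of small neurons, was at 671 ± 76.8 and 446 ± 94.1 CPM, and *Calca*, a neuropeptide of small neurons, was at 409 ± 20.3 and 342 ± 56.0 CPM. None of *Nefm*, *Nefl*, *Scn10a*, and *Calca* was called (edgeR adjusted p = 0.192, 0.282, 0.0542, and 0.199), and the groups overlapped for *Nefl*. *Runx3*, the large-neuron marker that was higher, and *Runx1* of the small-neuron list are transcription factors of lymphocytes as well. Markers of immune cells were higher: 9 of 12 macrophage markers and 11 of 12 lymphocyte markers were called higher and none lower, also at an unadjusted p under 0.05 and with DESeq2. The summed level of the macrophage markers was 140 to 191 CPM after AAV5-*Gfp* and 299 to 547 CPM after AAV5-*V1+V2*, and that of the lymphocyte markers was 34.5 to 56.8 and 370 to 696 CPM. *Csf1r*, a macrophage growth factor receptor, had a log2 fold change of 1.51, *Mrc1*, a macrophage mannose receptor, of 0.41, *Ptprc*, the common leukocyte antigen, of 2.83, and *Jchain*, the joining chain of immunoglobulins, of 6.41. Satellite glia (1 of 8 or 12.5% higher, median log2 fold change -0.02), Schwann cell myelin (0 of 8 called, 0.11), and vascular markers (1 of 8 or 12.5% higher, 0.13) had medians near 0, and fibroblast markers were higher in 2 of 6 (0.64). For the myelin markers, 1 was higher at an unadjusted p under 0.05 and 0 were called with DESeq2. *Apoe*, *Glul*, *Pmp22*, *Mbp*, *Rgs5*, and *Pdgfrb*, the most abundant genes of those glial and vascular lists, had log2 fold changes between -0.06 and 0.06. Of the fibroblast list, *Col3a1* had 0.90 and was called, while *Dcn* had 0.22 with overlapping groups and was not (edgeR adjusted p = 0.303). At an unadjusted p under 0.05, 4 fibroblast markers were higher, and with DESeq2 4. The part of these cell types in the values of *Hcn2*, *Hcn3*, and *Hcn4* was not tested.

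Because *Hcn4* is known from the heart, muscle markers were examined beside it. *Tnnt2*, the cardiac troponin T gene, had 2 to 8 counts in any library, and *Actc1*, cardiac actin, had 0 to 12. *Myh6*, a cardiac myosin gene, had more, at 346, 433, and 475 counts after AAV5-*Gfp* and 324, 287, and 355 after AAV5-*V1+V2*. Its log2 fold change of -0.42 did not pass (edgeR adjusted p = 0.0961). Skeletal muscle genes varied between libraries without following the groups, with *Myh4*, a myosin of fast muscle, at 197, 5882, and 772 counts after AAV5-*Gfp* and at 1515, 269, and 70 after AAV5-*V1+V2*. The part of muscle in the *Hcn4* values was not tested. *Ryr2*, a calcium release channel of heart and neurons, was the single muscle marker called, with a log2 fold change of -0.63. Erythrocyte markers were not called in any of 6 (2 were higher at an unadjusted p under 0.05, and 1 with DESeq2), with log2 fold changes of 0.07 for *Hba-a1* and 0.11 for *Hbb-bs*.

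Transcripts of proteins that bind HCN channels or set their number at the membrane were called in both directions. Of 12 such genes tested, 3 fell (25%) and 2 rose (16.7%), with a median log2 fold change of -0.03. The shares over all genes tested, for this list and those that follow, were 5.27% lower and 10.1% higher. *Pex5l* encodes TRIP8b, the auxiliary subunit that controls trafficking of HCN channels and their response to cyclic AMP. It had 8679, 9622, and 10109 reads after AAV5-*Gfp* and 5286, 6366, and 7888 after AAV5-*V1+V2*. It fell by 33.2% without overlap between the groups (log2 fold change -0.58, standard error 0.14, edgeR adjusted p = 0.0366). *Magi2*, a synaptic scaffold, fell by 32.9%, and *Nedd4l*, a ubiquitin ligase that targets membrane channels, fell by 30.9% (edgeR adjusted p = 0.0155 and 0.0213). *Lrmp*, an endoplasmic reticulum protein that is abundant in lymphocytes and modulates HCN4 when expressed with it, rose 3.16-fold, from 9.86 ± 1.19 to 31.1 ± 12.2 CPM (SD, n = 3, edgeR adjusted p = 0.0151). It was highest, at 1486 counts, in AAV5-*V1+V2* replicate 1, where *Ptprc* was also highest (11917 counts). The part of leukocytes in the *Lrmp* values was not tested. *Flna*, the actin cross-linker filamin A, was the other gene that rose (log2 fold change 0.46). *Kcne2* and *Cav3* did not pass the filter on low counts.

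Among the genes that make cyclic AMP, 3 of 12 fell and 1 rose (median log2 fold change -0.23), while 7 were lower and 1 higher at an unadjusted p under 0.05, and 5 and 1 with DESeq2. Of the adenylyl cyclases found in neurons, *Adcy8* fell by 35.3% and *Adcy2* fell by 27.6% (edgeR adjusted p = 0.0144 and 0.031), and *Adcy5* was the third. *Adcy7*, the cyclase typical of blood and immune cells, rose 2.46-fold from 25.8 ± 2.24 to 63.5 ± 18.4 CPM (SD, n = 3, edgeR adjusted p = 0.0144). *Gnas*, the stimulatory G protein subunit, was at 365 ± 9.10 and 350 ± 26.2 CPM, with overlapping groups (log2 fold change -0.06, standard error 0.08). Of 16 receptors tested that raise cyclic AMP, 1 rose and 1 fell (6.25% each, median log2 fold change 0.04). At an unadjusted p under 0.05, 4 were higher and 3 lower, and with DESeq2 3 were higher and 1 lower. *Htr4*, a serotonin receptor, fell by 42.3%, from 37.8 ± 5.87 to 21.8 ± 5.62 CPM (SD, n = 3, edgeR adjusted p = 0.0417). *Vipr1*, a receptor of vasoactive intestinal peptide, had a log2 fold change of 1.03 that did not pass (adjusted p = 0.0562). The prostaglandin receptors *Ptger4* and *Ptgir*, through which inflammation raises cyclic AMP in nociceptors, had log2 fold changes of -0.08 (standard error 0.09) and -0.16 (standard error 0.09), with overlapping groups. *Ptger2* was not tested, with 1 to 21 counts in any library.

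Phosphodiesterases, which break cyclic AMP down, and the proteins that cyclic AMP acts on had changes called by edgeR in one direction only. Of 15 phosphodiesterases tested, 4 fell and 0 rose by edgeR (median log2 fold change -0.15), although 4 had higher values at an unadjusted p under 0.05 and 3 were higher with DESeq2. *Pde8b* fell by 33.0%, *Pde4d* fell by 26.3%, and *Pde11a* fell by 33.2% (edgeR adjusted p = 0.02, 0.0278, and 0.0301), and *Pde1c* was the fourth. Of 11 effectors, 3 fell and 0 rose (median log2 fold change -0.29; 5 and 0 at an unadjusted p under 0.05, 3 and 0 with DESeq2). *Rapgef4*, which encodes the exchange factor EPAC2, fell by 20.4% (edgeR adjusted p = 0.0381). Of the cyclic AMP–binding membrane proteins of the Popeye family, *Bves* fell by 34.2% and *Popdc3* fell by 31.6% (edgeR adjusted p = 0.0239 and 0.0487). The call of *Popdc3* held in 9 of 16 alternative analyses. It was lost with total counts only (edgeR adjusted p = 0.0533) and with limma-voom (adjusted p = 0.0542), among others. *Prkaca*, the catalytic subunit of protein kinase A, had a value of -0.19 on the log2 scale (standard error 0.08) that did not pass (adjusted p = 0.146).

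The nearest relatives of the HCN channels have a cyclic nucleotide–binding fold of their own. Of the 6 cyclic nucleotide–gated channel genes of sensory transduction, 2 passed the filter on low counts. *Cnga3* and *Cngb1* had means of 0.583 and 0.806 CPM with AAV5-*Gfp*, and log2 fold changes of -0.86 and -0.44 that did not pass (edgeR adjusted p = 0.0688 and 0.408). Of 8 ether-a-go-go potassium channels, 3 fell and 0 rose (median log2 fold change -0.44; 5 and 0 at an unadjusted p under 0.05, 4 and 0 with DESeq2). *Kcnh1* fell by 38.0%, *Kcnh7* fell by 41.1%, and *Kcnh8* fell by 30.8% (edgeR adjusted p = 0.0239, 0.0332, and 0.0405).

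Over the 7 lists, 17 of 76 genes tested were called lower (22.4%, against 5.27% of all genes) and 4 were called higher (5.26%, against 10.1%), with a median log2 fold change of -0.21. Neuronal markers had lower values as well. Of the pan-neuronal, large-diameter, and small-diameter markers, 16.7%, 36.4%, and 8.33% were called lower, with medians of -0.45, -0.42, and -0.31. No test compared the lists with other genes, the neuronal markers included. The calls of the pathway genes depended on the AAV5-*Gfp* libraries. With replicate 1 of that group left out, 0 pathway genes were higher and 1 was lower (*Adcy8*, edgeR adjusted p = 0.0488). With replicate 2 or replicate 3 left out there were 0 and 0, so that every pathway gene described above as rising or falling, *Adcy8* included, lost its call. Leaving out AAV5-*V1+V2* replicate 2 gave 3 higher and 3 lower. In those 4 edgeR fits, 10 to 11 genes were higher and 23 to 29 lower before adjustment (p under 0.05). Leaving out AAV5-*V1+V2* replicate 3 gave 11 higher and 19 lower. Over all genes, the marker genes included, 257, 12, and 15 were higher and 59, 0, and 0 were lower by edgeR without AAV5-*Gfp* replicate 1, 2, and 3, where 2916 to 3086 and 1815 to 2192 passed an unadjusted p under 0.05.

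**Figure D3:**
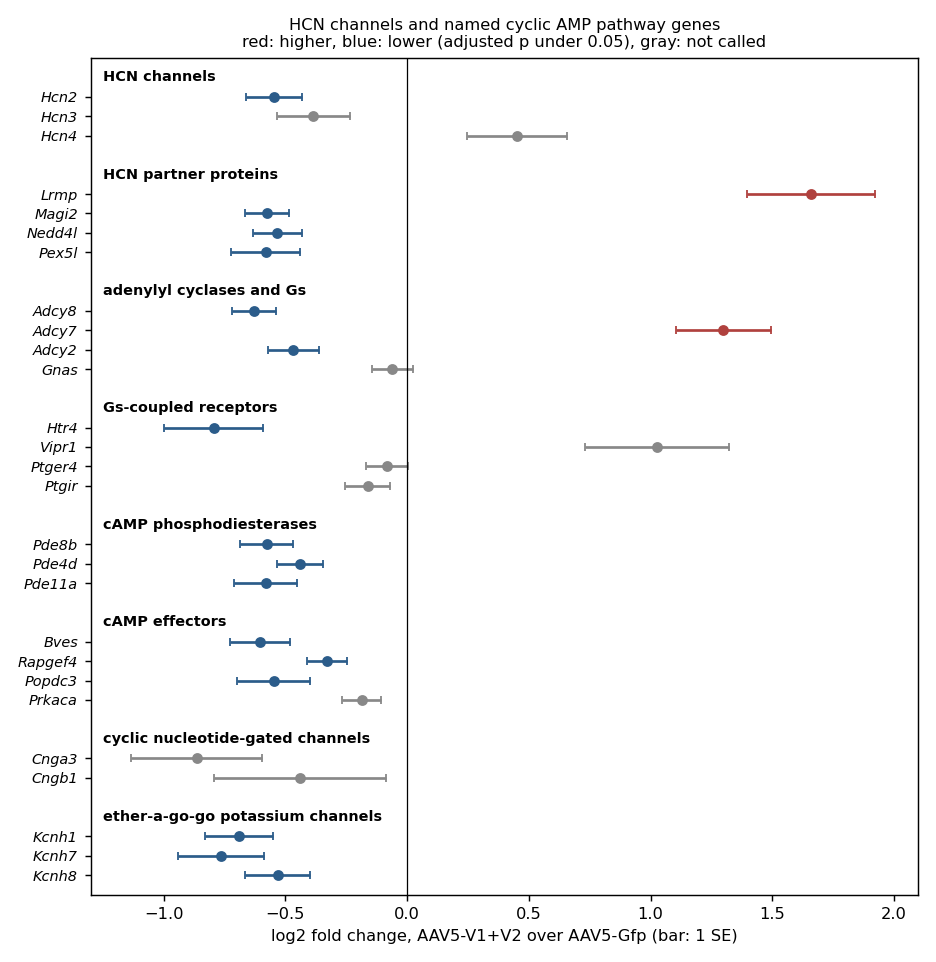
Log2 fold change of AAV5-*V1+V2* over AAV5-*Gfp* (horizontal axis) with 1 standard error for *Hcn2*, *Hcn3*, *Hcn4*, and the named genes of 7 lists of HCN partners, cyclic AMP signaling, and related channels. *Lrmp* and *Adcy7* are the red points (called higher), and *Hcn2* lies among genes such as *Pex5l* (-0.58) and *Pde8b* (-0.58) that were called lower.

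The genes whose log2 CPM followed each member most closely over the 6 libraries are given as a description. With 6 points, high correlations arise for some of 18593 genes. For *Hcn2* they were *Gm29506* (Pearson r = 0.98), *Pla2r1* (0.98), and *Gm44813* (0.98). For *Hcn3* they included *Pet100* (r = 0.997) and *Vdac2* (0.996), and for *Hcn4* they were *Eif1a* (0.99), *Ormdl2* (0.98), and *Itih5* (0.97). Of the genes given here, *Gm29506* was called (log2 fold change -1.02, edgeR adjusted p = 0.0248), and the others were not.

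**Figure D4:**
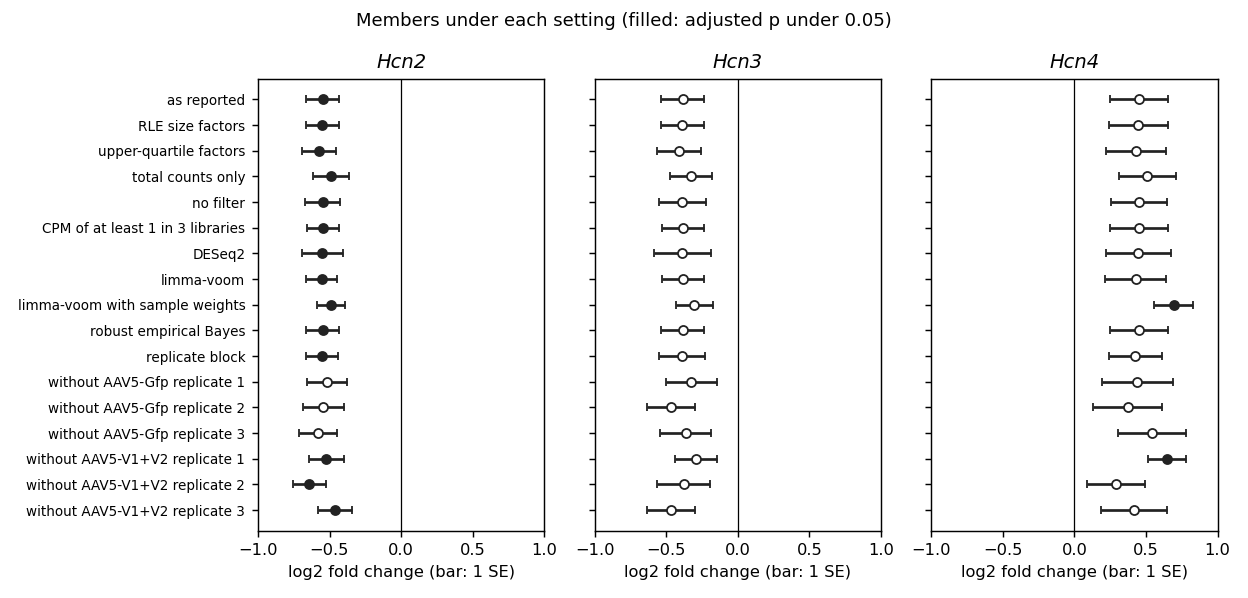
Log2 fold change of each member (horizontal axis, bar of 1 standard error) as reported and under 16 alternative analyses (rows), with filled points where the adjusted p was under 0.05. *Hcn2* stays between -0.64 and -0.46, *Hcn3* between -0.47 and -0.29, and *Hcn4* between 0.29 and 0.69.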

How the data were processed

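RNA was measured in 6 DRG libraries made with a stranded total RNA kit. The table deposited by the authors holds unnormalized counts of reads, 1 row per gene symbol and 1 column per library, all of them used. Genome builds GRCm38 and mm10 are named in the submitters' processing notes. The aligner, counter, annotation, and use of strand are not given in the sources used here.

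The fit used edgeR 4.0.16 (R 4.3.3): filterByExpr with the group, TMM, glmQLFit, and glmQLFTest without a covariate, with Benjamini-Hochberg adjustment over 18593 genes and a threshold of 0.05. Each standard error is the log2 fold change over the root of its F statistic. Log2 CPM used a prior count of 2, and percent changes come from the fitted fold change. Lengths are merged exons of GENCODE M21. Single values were compared by exact permutation over the libraries. Intervals from counting error alone were not used. The calculations were tested on simulated data. Libraries of a group differed by more than sampling noise (chi-square per degree of freedom 8.27 to 48.9).

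Pathway and marker lists were compiled by hand. The named genes were the 3 members, *Pex5l*, *Ptger2*, *Ptger4*, *Ptgir*, *Gnas*, and *Prkaca*, the 3 genes of each pathway list with the smallest adjusted p, the 2 most abundant genes of each marker list, and the 3 closest genes to each member. *Flna*, *Adcy5*, *Pde1c*, *Tnnt2*, *Actc1*, *Myh6*, *Runx1*, *Runx3*, *Kcne2*, *Cav3*, and *Pklr* were chosen after their values were seen. *Pde2a* is split over 2 rows and was left out. Members and lists were chosen with earlier results of these data known. A further member of the HCN family and some genes that the naming rule picked are not reported here.

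Alternatives used other normalizations and filters, DESeq2 1.42.0, limma 3.58.1 (voom with and without sample weights), robust empirical Bayes, a replicate block, other prior counts (0.5 and 5), other neuronal markers, and each library left out. Their use for the named pathway genes was added after seeing the data.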

Additional observations from a re-analysis of the deposited data

How the results depend on the processing

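*Hcn2*, *Hcn3*, and *Hcn4* kept their signs in all 16 alternatives. With single replicates left out, the log2 fold change ranged from -0.64 to -0.46 for *Hcn2* (edgeR adjusted p from 0.0334 to 0.0964) and from 0.29 to 0.65 for *Hcn4* (0.0209 to 0.372). With sample weights in limma-voom, *Hcn4* was at 0.69 and passed, 8 pathway genes were higher, and 1995 of all genes were lower. Pathway genes called higher were 4 as reported, 7 with total counts only, 7 without a filter, and 9 with DESeq2, which called 1606 of all genes lower. With a library left out, 0 to 11 pathway genes were higher and 0 to 19 were lower, and over all genes 12 to 2474 were higher and 0 to 1446 were lower, against 1872 and 980. The lowest of these came without AAV5-*Gfp* replicate 2, where 2916 and 2029 genes passed an unadjusted p under 0.05. The cause was not tested.

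Relative to pan-neuronal markers, *Hcn2* ranged from -0.21 to 0.12 with a library left out (0.12 without AAV5-*V1+V2* replicate 3). With large-diameter and small-diameter markers in the reference, *Hcn2* was at -0.283 and -0.262, and *Hcn3* at -0.115 and -0.093. *Ptger4* was at 0.007 in limma-voom with sample weights. The *Hcn2* to *Hcn4* ratio ranged from -1.17 to -0.83 and the *Hcn3* to *Hcn4* ratio from -0.93 to -0.65. Counts of 111 to 479 reads per library stand behind each member, and the number of libraries and this depth both limit the precision.

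The replicate numbers are shared between the groups. The deviations of same-numbered libraries from their group means had correlations of 0.036, 0.066, and 0.107. Pairs with different numbers ranged from -0.104 to 0.043. AAV5-*V1+V2* replicates 2 and 3 correlated best with the AAV5-*Gfp* library of the same number, and replicate 1 with AAV5-*Gfp* replicate 2 (0.043). All of these values were small, and they do not settle whether the libraries were paired. With a replicate block, *Hcn2* was at -0.55 (edgeR adjusted p = 0.0209), *Hcn3* at -0.39, and *Hcn4* at 0.43, and 6 pathway genes were higher and 20 lower. Over all genes, the block gave 2118 higher and 1341 lower, against 1872 and 980 without it.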
